A study of Gallus gallus with 24 samples.

Results

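The step from embryonic day 18 (E18) to embryonic day 20 (E20) in chicken liver was described from 8 of the 24 arrays of the series. Of these, 4 are titled as E18 embryos and 4 as E20 embryos, each hybridized with RNA from the liver of a separate embryo labelled male. Of 38439 probe sets that are not Affymetrix controls, 27168 carry a single gene symbol, and these stand for 13009 named genes. All birds were Ross x Ross broilers, a commercial meat-type cross. The embryos were incubated in the same way and living on their yolk, and no embryo group received a treatment. The E20 embryos were taken just before pipping and hatch, at the age when eggs were moved to hatching trays. The titles were used for the ages because the stage entry of these samples reads e16 throughout. The other 16 arrays (E16 embryos, and hatchlings of day 1, day 3 and day 9, called D1, D3 and D9) entered the model only for its estimate of the spread and are used below to place the levels of E18 and E20. The D1 chicks had not been fed. The D3 and D9 chicks had been vaccinated against Marek's disease virus and had feed at will. From D1 to D3, age, feeding and vaccination therefore cannot be told apart. Levels are log2 intensities after robust multi-array averaging, and ratios are the log2 level at E20 minus that at E18, so that a positive ratio means a higher level at E20. The study states this contrast the other way around, as E18/E20.

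In the last days in the egg the chick embryo draws on yolk lipid, starts to breathe through its lungs and works its way out of the shell. Thyroid hormone and glucocorticoids rise toward hatch in birds and act through nuclear receptors in the liver, and the balance of the deiodinases, enzymes that make or destroy active thyroid hormone, sets how much of it liver cells see. The liver burns fatty acids from the yolk, makes the proteins of blood plasma and, through bile, clears and recycles sterols.

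Markers of hepatocytes were high at both ages. By limma none of 16 was called, although 7 had an unadjusted p under 0.05, and their mean level was between 13.4 and 13.51 in the E18 livers and between 13.41 and 13.48 in the E20 livers. Albumin (ALB) was at 15.21 ± 0.02 (SD, n = 4) at E18 and 15.14 ± 0.04 at E20. Of 19 muscle markers 6 were near background at both ages, among them TNNT2 of heart muscle (4.06 and 4.19), and 1 was called, the troponin TNNC1, which was lower at E20 (8.76 and 6.75). Of 13 pancreas markers 6 were near background and 1 was called, the amylase AMY2A (6.75 and 5.95), which was not called without E20 replicate 1 (-0.72). The mean level of both lists overlapped between the ages (5.22 to 5.33 and 5.09 to 5.38 for muscle, 5.07 to 5.27 and 4.94 to 5.15 for pancreas). E18 replicate 2 stood apart in the W-linked gene HINTW, at 12.17 where the other E18 livers were between 5.48 and 6.05, although all birds are labelled male, and its part in the results was covered by repeating the tests without it. The livers of each age also differed among themselves in how far they lay from the other age. Of the 550 genes called below, E20 replicate 2 was the E20 liver nearest to the E18 levels for 283 and E20 replicate 4 was the farthest for 265, while E18 replicate 1 was the E18 liver farthest from E20 for 223. Array weights estimated by limma, lower for noisier arrays, were 0.708, 0.621 and 0.465 for these livers. The other arrays of these ages had weights from 0.784 to 1.236. What sets these livers apart was not tested.

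Liver gene expression moved in both directions between E18 and E20. Calls required a ratio of at least 0.75 in size and an adjusted p (limma, Benjamini-Hochberg over all 38439 probe sets) of at most 0.05. On the level of probe sets, 586 were called higher at E20 and 429 higher at E18, which is 2.64% of all tested, and among probe sets with a single symbol the called share was 3.15%. With each gene shown by its probe set of highest mean level, 312 genes were higher at E20 (2.40% of 13009) and 238 were higher at E18 (1.83%). These shares are the background for every count of called list members below. The lists were chosen with earlier results of these data known. A list share above the background is therefore a description and no test of enrichment. The median ratio was 1.02 among the former and -1.05 among the latter, against -0.01 over all named genes. In 478 of the 550 called genes the 4 livers of each age did not overlap, as was the case for 14.5% of all named genes. Ratios of 3 or more were seen in 10 genes and a ratio of -3 or less in 1 gene, the deiodinase DIO3. Without E18 replicate 2 the counts were 311 and 239, and 463 of the 550 genes were called in the same direction.

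**Figure D1:**
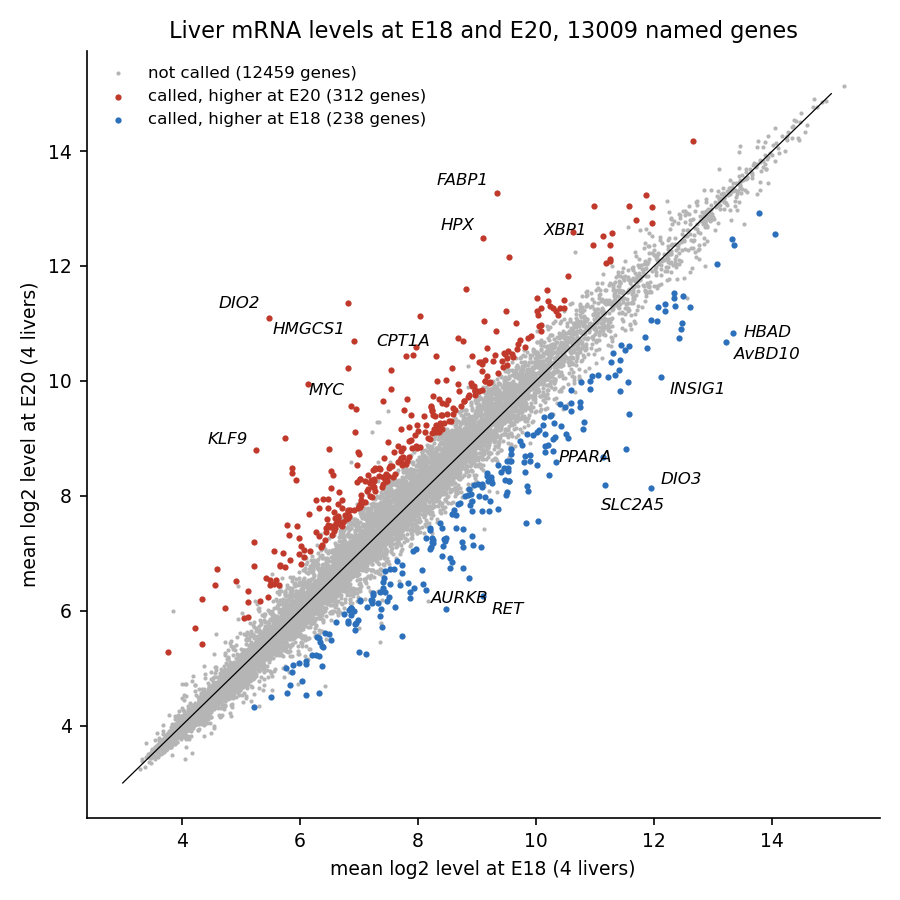
Mean log2 level of each named gene at E18 (horizontal axis) and at E20 (vertical axis), 4 livers each, with called genes in colour and the line of equal levels. The 312 genes called higher at E20 lie above the line and the 238 called higher at E18 below it, with DIO2 and DIO3 among the genes farthest from the line on either side.

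The deiodinases changed over. DIO2, which converts thyroxine to the active hormone T3, was on average 49.0-fold higher at E20, and DIO3, which inactivates both hormones, was 14.0-fold lower, while DIO1 was not called. DIO2 was at 5.63, 7.92, 4.36 and 3.98 in E18 replicates 1 to 4 and at 11.50, 9.80, 12.87 and 10.18 in the E20 livers. Every E20 liver lay above every E18 liver, and the replicate with the high W-linked signal was the highest at E18. The log2 ratio of DIO2 was 5.61 (standard error 0.67, adjusted p = 1.29e-05), and 6.43 without that liver. In 2 E18 livers the value is under 4.43, which marks the dimmest 25% of probe sets by mean level, so the true fold may be larger, and a second probe set of DIO2 gave 1.98. DIO3 was at 11.53, 11.76, 12.18 and 12.30 at E18 and at 6.83, 9.56, 7.50 and 8.65 at E20. The groups did not overlap, but the E20 livers were spread over a far wider range than the E18 livers, and the ratio was -3.81 (standard error 0.51, adjusted p = 4.24e-05). DIO1, which acts on both sides of the balance, had a ratio of -0.01 (standard error 0.1) at a level above 11.4 in all 8 livers. The thyroid hormone receptors THRA and THRB were dim on these arrays (5.38 and 4.61 at E18) and were not called. KLF9, a zinc finger factor whose gene responds directly to thyroid hormone and to glucocorticoids, was at 4.81 to 5.42 at E18 and at 8.03 to 9.14 at E20, a ratio of 3.52 (standard error 0.25, adjusted p = 1.37e-08). Counted over the whole thyroid hormone axis (17 measured genes), DIO2 and KLF9 were called higher at E20, 2 in all, and DIO3 was the only 1 called higher at E18.

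After DIO2, the largest ratios among genes higher at E20 were those of SPIA3, FABP1, CCDC13, HMGCS1 and KLF9, of which HMGCS1 is described with sterol metabolism. FABP1, which binds fatty acids in the cytosol of hepatocytes, was at 8.36, 9.60, 9.59 and 9.80 at E18 and at 13.58, 12.51, 13.39 and 13.61 at E20. This is a 15.3-fold difference with no overlap (ratio 3.93, standard error 0.31, adjusted p = 4.8e-08), with E18 replicate 1 the lowest. The serine protease inhibitor SPIA3 was at 5.98 to 7.49 at E18 and at 10.66 to 12.82 at E20 (ratio 4.54, adjusted p = 4.13e-07). The plasma heme carrier HPX was at 8.11, 8.59 and 8.55 in E18 replicates 1, 3 and 4 but at 11.13 in replicate 2, and at 12.22 to 12.72 at E20, which gave 3.38 with all livers and 4.06 without replicate 2. The organic anion carrier SLCO1A2 ran from 5.09 to 6.82 at E18 and from 7.52 to 10.98 at E20, with E20 replicates 2 and 3 closest to the E18 livers (ratio 3.26, adjusted p = 1.68e-04). SULT6B1L, named as a sulfotransferase, had a ratio of 3.09, and ABCB1LA, named as a relative of the drug efflux pump ABCB1, 2.65. LDLRAD4, a membrane protein that restrains TGF-beta signalling, had 2.63. The probe set of CCDC13, a centrosome-associated protein, had 3.81, while the second probe set of this gene had 0.13.

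**Figure D2:**
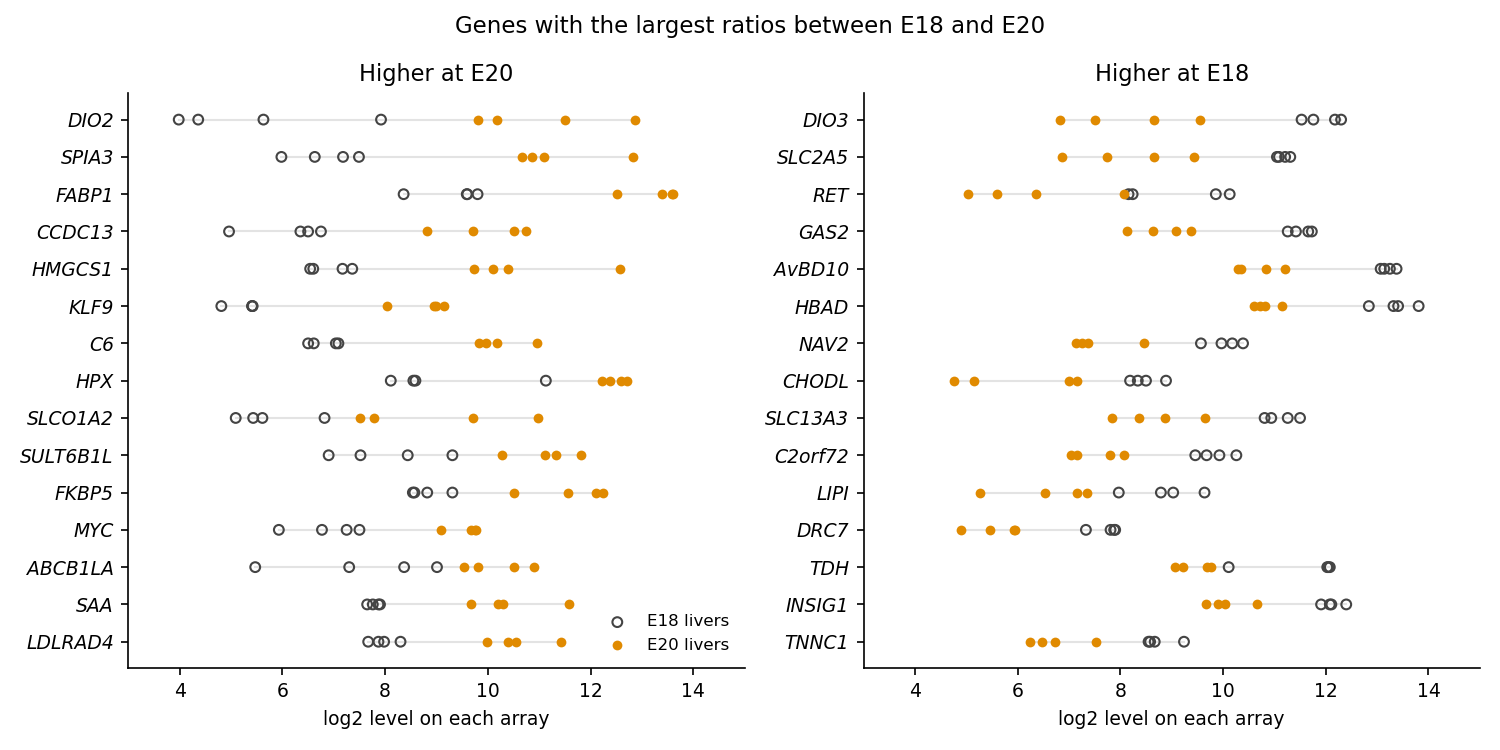
Log2 level on each array of the 15 genes with the highest and the 15 with the lowest ratios among called genes without overlap, E18 livers as open circles and E20 livers as filled ones. HPX and DIO2 have 1 high E18 liver, TDH has 1 low E18 liver, and the E20 livers of DIO3, SLC2A5, RET and CHODL are widely spread.

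After DIO3, the largest differences among genes higher at E18 were those of SLC2A5, RET, GAS2, AvBD10 and HBAD. SLC2A5, the fructose carrier, was at 11.05 to 11.31 in the 4 E18 livers and at 8.65, 9.44, 7.75 and 6.86 at E20. The tight E18 group and the scattered E20 group did not overlap (ratio -2.99, standard error 0.39, adjusted p = 3.63e-05), and the other probe sets of the gene gave less, down to -0.07. AvBD10, a beta-defensin, was at 13.14, 13.38, 13.25 and 13.07 at E18 and at 10.30, 11.20, 10.83 and 10.35 at E20, a 5.81-fold lower level (adjusted p = 1.19e-08). SLC13A3, a carrier of dicarboxylates, had a ratio of -2.45, and RET, the receptor tyrosine kinase of the GDNF ligands, -2.83 with E20 replicate 2 at 8.07 just under the lowest E18 liver at 8.16. GAS2, a protein that links actin and microtubules, had -2.70, the adaptor of the cytoskeleton NAV2 -2.47 and the membrane lectin CHODL -2.46. TDH, the mitochondrial enzyme that breaks down threonine, was at 12.03 to 12.08 in 3 E18 livers and at 10.11 in replicate 2, and at 9.06 to 9.76 at E20. Its ratio was -2.14, and -2.62 without E18 replicate 2. LIPI, a lipase (-2.28), DRC7, a part of the regulatory complex of cilia (-2.18), C2orf72 (-2.32) and the troponin TNNC1 (-2.01) complete the 15 genes of lowest ratio together with HBAD and INSIG1, described below. Of GAS2 and NAV2, other probe sets reached only 0.03 and -0.02.

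Many genes of mitosis were lower at E20. Of 59 measured genes of mitosis and the spindle, 30 were called higher at E18 and none higher at E20, a share of 50.8% where 1.83% of all named genes were called in that direction, and 55 of the 59 had a ratio under 0 (median -0.77). AURKB, the kinase of the chromosomal passenger complex, was at 7.85, 8.21, 8.12 and 8.13 at E18 and at 7.38, 6.06, 6.05 and 6.34 at E20. Here and in CKAP2, a spindle protein (8.47 to 8.69 at E18, and 7.63, 6.41, 6.62 and 6.71 at E20), E20 replicate 1 stayed closest to the E18 livers. The ratio of AURKB was -1.62 (standard error 0.24, adjusted p = 1.42e-04) and that of CKAP2 -1.74. The spindle checkpoint kinases BUB1 and BUB1B both had -1.65, CKS1B, a partner of cyclin-dependent kinases, -1.51, CDCA3 -1.48 and the activator of the anaphase-promoting complex CDC20 -1.45. Other probe sets of BUB1, BUB1B and CDCA3 reached only 0.02, -0.11 and -0.29. MKI67, the proliferation antigen, had -1.35 and the kinase CDK1 that drives entry into mitosis -1.29.

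Genes of DNA replication did not show such a count. Of 38 measured members of the replication machinery, 1 was called higher at E18, CDC45 of the replicative helicase (-1.15), with a median of -0.11, and the helicase subunit MCM2 and the sliding clamp PCNA had 0.09 and 0.23. No test of the difference between the 2 lists was made. Set over the 6 ages, the mean level of the 59 mitosis genes went from 8.18 ± 0.23 at E16 to 7.24 ± 0.11 at E18 and 6.42 ± 0.20 at E20, and stood at 8.43 ± 0.18 in the D1 and 8.67 ± 0.13 in the D3 livers. The 38 replication genes were at 7.88 ± 0.13, 7.16 ± 0.19, 7.05 ± 0.16, 8.25 ± 0.18 and 8.43 ± 0.08 at these ages. The means of both lists were lower at E20 than at E16 and higher at D1, and the 4 E20 livers (6.28 to 6.72) lay below all other livers of the series in the mitosis mean. These means of log2 levels are descriptive.

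**Figure D3:**
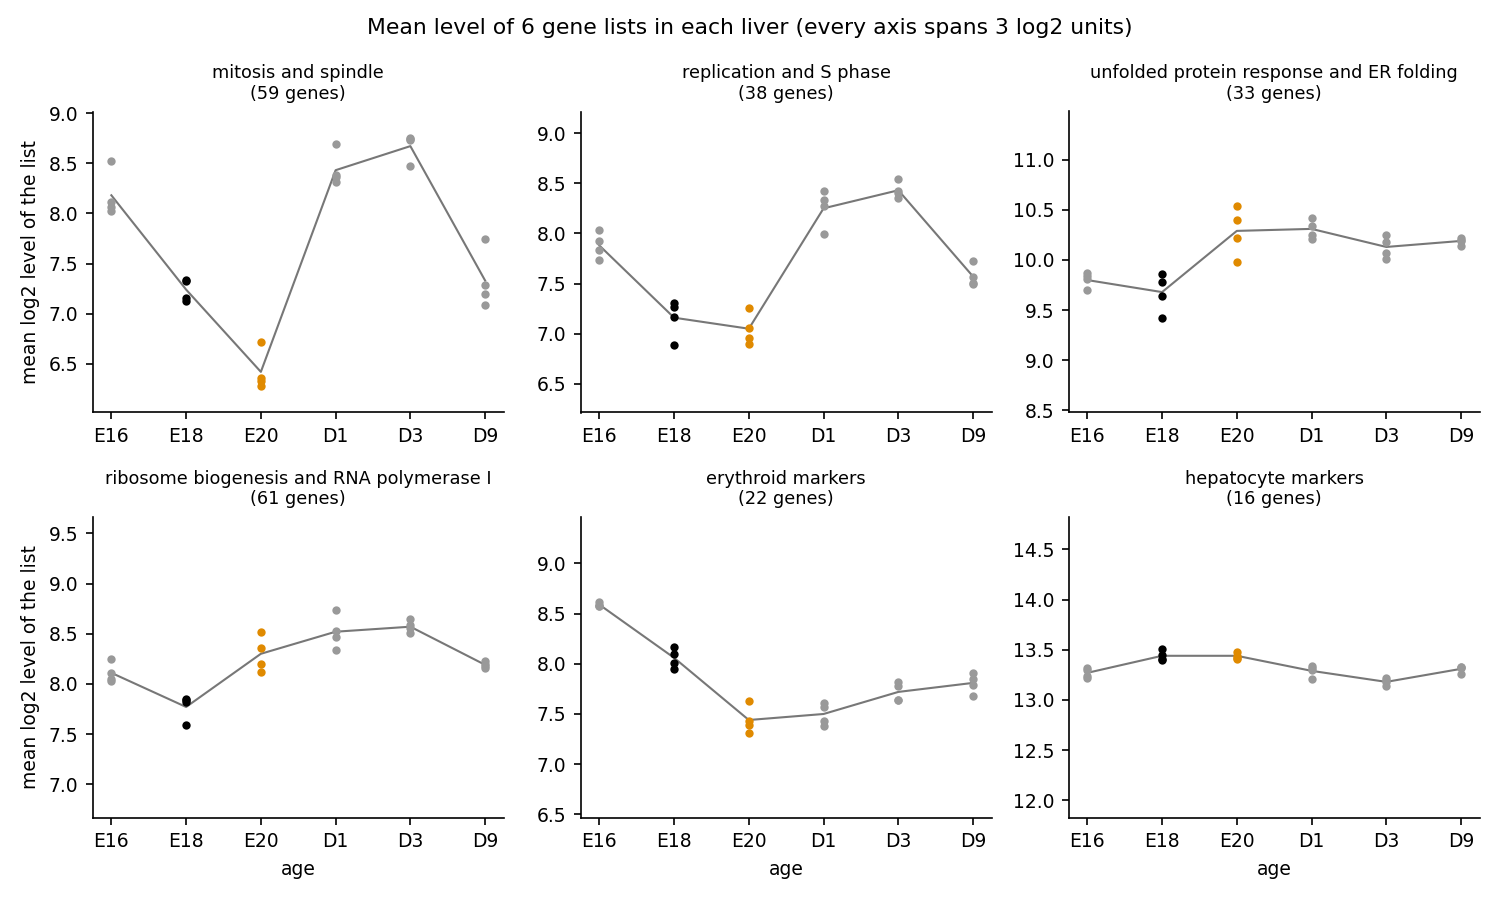
Mean log2 level of 6 gene lists in each of 4 livers at 6 ages, every vertical axis spanning 3 log2 units, E18 in black, E20 in orange and the line joining the age means. The mitosis mean is lowest at E20 (6.42) between 7.24 at E18 and 8.43 at D1, the folding and ribosome lists are higher at E20 than at E18, and the hepatocyte markers stay between 13.18 and 13.44.

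Some red cell genes were lower at E20 as well, so that these calls go in the same direction as those of the mitosis genes. Of 22 measured erythroid markers, 7 were called higher at E18 (31.8%, against 1.83% of all named genes). None was called higher at E20 and 15 were not called (median -0.52). The hemoglobin chain HBAD was at 13.81, 13.41, 13.32 and 12.84 at E18 and at 10.73, 11.15, 10.61 and 10.82 at E20 (ratio -2.52, standard error 0.25, adjusted p = 1.12e-06). HBBR, a beta-type globin, had -1.68, BPGM, which makes the red cell regulator of oxygen binding, -1.56 and the alpha globin HBA1 -1.49. Probe sets of HBAD, BPGM and HBA1 differ, up to -0.07, -0.05 and 0.03. The anion exchanger SLC4A1, a defining marker of red cells, had -0.74 and missed the limit on the ratio. The mean level of the 22 markers ran from 7.95 to 8.17 in the E18 livers and from 7.31 to 7.63 in the E20 livers, and its part in the mitosis counts was not tested. At D1, where the mitosis mean stood at 8.43, the erythroid mean was 7.50 ± 0.11. In whole liver, fewer cells of a type and less RNA per cell cannot be told apart.

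In the other cell type lists few or no markers were called. By limma none of 23 stellate and fibroblast markers and none of 21 lymphocyte markers was called, and 8 and 3 of them had an unadjusted p under 0.05. The stellate mean level was nevertheless lower in all E20 livers (8.47 to 8.69) than in the E18 livers (8.71 to 8.87). Of 11 cholangiocyte markers 2 were called higher at E18, a share of 18.2%, and their mean level ran from 8.27 to 8.48 at E18 and from 7.98 to 8.17 at E20, without overlap. The part of these cells in the other results was not tested. EPCAM, the epithelial adhesion molecule of bile duct and immature liver cells, was at 11.58 to 12.10 at E18 and 10.08 to 11.06 at E20 (ratio -1.30, adjusted p = 2.09e-04), and SOX9, a factor of bile duct cells, had -1.0, while KRT7 of the same list was level (6.82 and 6.86). Among 20 endothelial markers LYVE1 had 1.04 and SOX17 -0.87, and of 15 macrophage markers only CD74, the invariant chain of class II antigen presentation, was called (0.86). HNF4A, the hepatocyte regulator, was at 10.18 ± 0.34 and 9.52 ± 0.42, a ratio of -0.66 that missed the limit. With single livers left out the calls on LYVE1 (E18 replicates 1 and 2, E20 replicates 1 and 4), SOX17 (all but E18 replicates 1 and 3 and E20 replicate 3) and CD74 (E20 replicate 2) were lost, at ratios of 0.83 to 0.92, -0.84 to -0.75 and 0.73.

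Many genes for protein folding in the endoplasmic reticulum (ER) were called higher at E20. In the list of the unfolded protein response, the program that matches folding capacity to secretory load, 12 of 33 measured genes were called higher at E20 and none higher at E18, a share of 36.4% where 2.40% of all named genes were called, and all 33 ratios were above 0 (median 0.53). XBP1, the transcription factor of this response, was at 10.83, 11.36, 10.74 and 10.95 at E18 and at 12.18, 12.34, 12.54 and 12.39 at E20. The 2 groups stood clearly apart (ratio 1.39, standard error 0.16, adjusted p = 9.62e-06), and its second probe set gave 1.67. ERN1, the ER membrane sensor that activates XBP1 by splicing its mRNA, had 1.28, with other probe sets down to 0.03. The oxidase ERO1B that drives disulfide formation had 1.48, and the co-chaperones DNAJB11 and DNAJB9 had 1.22 and 1.15. HSPA5, the main chaperone of the ER lumen, was at 11.33, 12.39, 11.07 and 11.96 at E18 and at 13.02, 12.39, 12.60 and 13.18 at E20, so that E20 replicate 2 only reached the level of E18 replicate 2 (ratio 1.11, adjusted p = 0.00136). HERPUD1, which links folding to degradation, and CRELD2 both had 1.09, and the second probe set of CRELD2 gave 0.26. The translocation channel and vesicle coat genes that serve the same route gave 1 call in 38 (SRPRA, 0.88), with 33 above 0 and a median of 0.35. The mRNA of ATF4, the factor of the parallel branch, had 0.03, and the activity of either branch was not measured.

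Some cytosolic chaperones and ribosome assembly genes were also higher at E20. Among 37 heat shock genes 6 were called higher at E20 (16.2%), including HSPH1 (1.88), the constitutive HSPA8 (1.46) and HSP90AA1 (1.28). The other probe set of HSPH1 gave 0.13. BAG3, the only member called higher at E18 (-1.22), was lost in 8 of 16 other settings of the test. It had ratios of -1.07 to -0.89 without E18 replicate 1 or 2 or without E20 replicate 1 or 4. Among 61 genes of ribosome biogenesis 9 were called higher at E20 (14.8%) and 1 higher at E18 (1.64%). Of all named genes 2.40% and 1.83% were called in these directions. In the list 56 ratios were above 0, with a median of 0.52. The list contains both MYC proteins, which regulate ribosome production, and these moved in opposite directions. MYC was at 5.93, 6.77, 7.50 and 7.25 at E18 and at 9.77, 9.09, 9.68 and 9.75 at E20, a 6.55-fold higher level (ratio 2.71, standard error 0.24, adjusted p = 1.93e-07). MYCN was at 7.28, 6.13, 6.28 and 5.62 at E18 and at 4.30 to 4.72 at E20, where it is near background (ratio -1.75, adjusted p = 3.03e-04). NOP16 (1.57), the helicase DDX21 (1.34), NOLC1 (1.28) and EIF6 (1.28), all nucleolar or subunit assembly factors, had the largest ratios after MYC. Probe sets of DDX21 ran from 0.15 to 1.38. Leaving out E20 replicate 2 raised the count of this list from 9 to 17. None of 40 translation factors and none of 32 proteasome genes was called by limma (medians 0.25 and 0.20), but 21 and 14 of them had an unadjusted p under 0.05. The polyamine enzymes ODC (1.45) and SRM (1.07), of which the former is a known target of MYC in mammals, were also higher at E20. Of 13 polyamine genes 3 were called higher at E20 and 1 higher at E18, with 5 below 0 and a median of 0.07. SRM was not called with the mean of its probe sets.

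**Figure D4:**
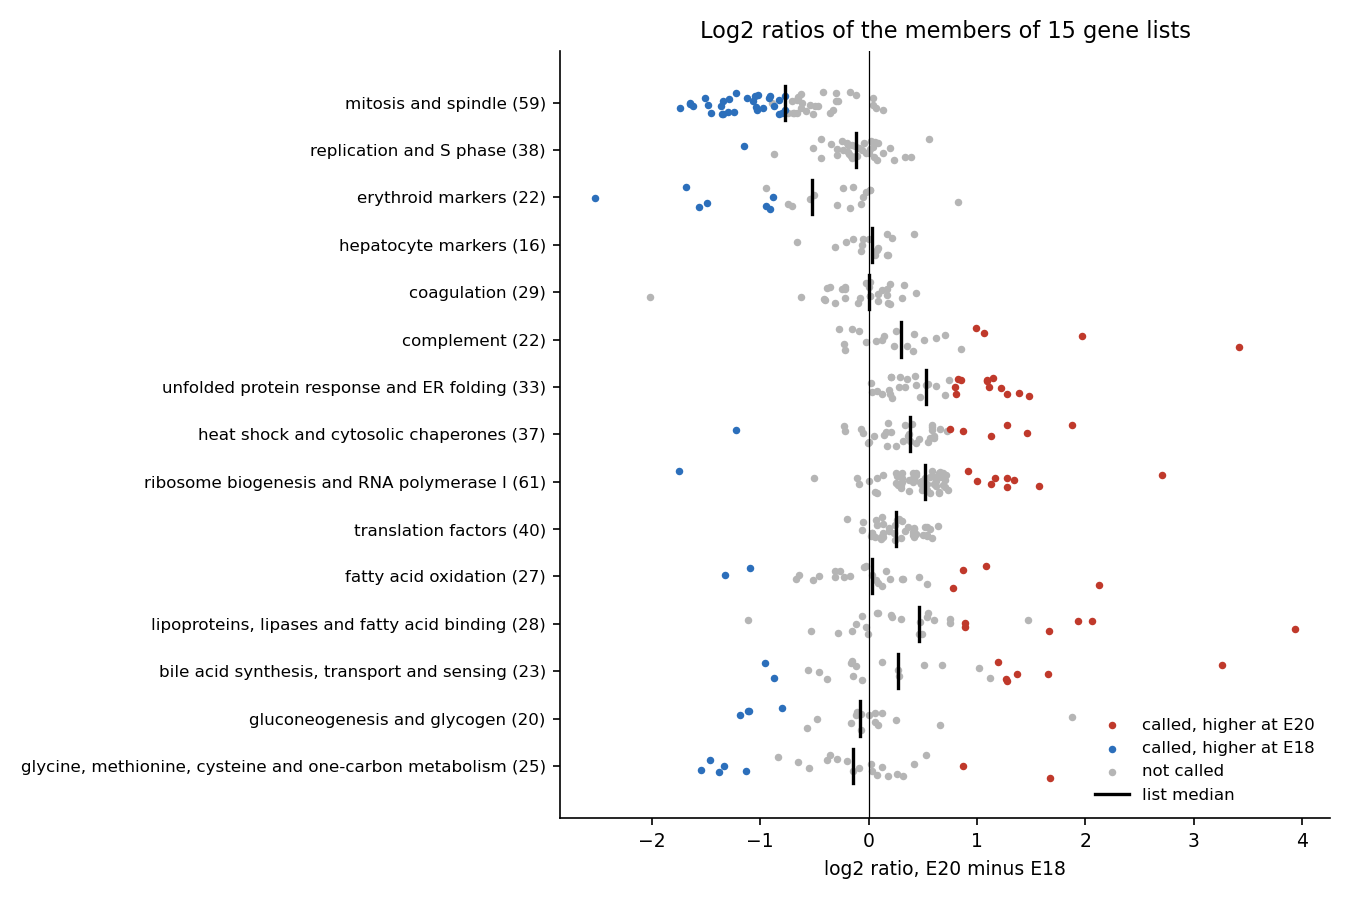
Log2 ratio (E20 minus E18) of every measured member of 15 gene lists, with the number of members after each name, called members in colour and the list median as a bar. The mitosis list lies to the left of 0 (median -0.77), the folding list wholly to the right (0.53), and the replication, hepatocyte and coagulation lists lie around 0.

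The lists of lipid genes differed, and in fatty acid oxidation single steps changed in both directions. CPT1A, the gate for entry of long-chain fatty acids into mitochondria, was at 8.12, 7.76, 8.59 and 8.76 at E18 and at 10.52, 9.96, 10.75 and 10.48 at E20, and its 3 probe sets gave 2.01 to 2.26 (adjusted p = 2.15e-05 for the shown one). At the same time PPARA, the fatty acid sensing receptor that induces this pathway, was at 9.76 to 10.64 at E18 and 8.64 to 8.98 at E20 (ratio -1.32, adjusted p = 5.72e-05). The 3 probe sets of PPARA ran from -1.32 to -0.47, and with the one of largest variance the gene was not called (-0.47, adjusted p = 0.428). ETFDH, which passes electrons from fatty acid oxidation to the respiratory chain, was at 11.80 to 11.89 at E18 and at 10.57 to 10.90 at E20. With a ratio of -1.09 (standard error 0.11, adjusted p = 1.28e-06) it was among the tightest differences of the list. In all, 4 of 27 fatty acid oxidation genes were called higher at E20 (14.8%) and 2 higher at E18 (7.41%), at a median of 0.03. Of all named genes 2.40% and 1.83% were called in these directions. The calls on ACSL5 (0.78) and CRAT (0.87) were lost in 7 and 11 of 16 other settings of the test. The coactivator PPARGC1A had 0.54 and was not called (adjusted p = 0.167).

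In the list of lipoproteins, lipases and fatty acid binding 20 of 28 ratios were above 0 and 8 below, with a median of 0.46. Its mean level ran from 8.60 to 8.82 at E18 and from 9.15 to 9.47 at E20, without overlap. Of these 28 genes, 6 were called higher at E20 (21.4%, against 2.40% of all named genes) and none higher at E18. After FABP1 these were APOA4 (2.06), APOA5 (1.93), apolipoproteins of triglyceride-rich particles, FABP7 (1.66), the lipoprotein lipase LPL (0.89) and the triglyceride lipase PNPLA2 (0.89). In APOA5 the groups overlapped, with E20 replicate 2 at 9.44 and E18 replicate 3 at 9.52. APOB, the structural protein of these particles, was level at 13.55 and 13.63. Fatty acid synthesis gave 1 call in 18 genes (ELOVL5, 1.07), and THRSP, SCD and ME1, genes that feed or regulate lipogenesis, had -0.27, -0.09 and -0.19. The calls on LPL (0.74 without E18 replicate 1), PNPLA2 (0.73 without E20 replicate 3) and ELOVL5 (0.60 to 1.10 without E18 replicate 1 or 2 or E20 replicate 1 or 4) were lost with those livers left out.

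In sterol metabolism, HMGCS1, which makes the precursor of mevalonate, was at 6.54, 6.60, 7.36 and 7.17 at E18 and at 9.73, 10.10, 10.40 and 12.57 at E20 (ratio 3.78, standard error 0.42, adjusted p = 5.29e-06). E20 replicate 4 was more than 2 log2 units above the other E20 livers. INSIG1, which holds the sterol-regulated SREBP factors in the ER, went the other way, from 11.91 to 12.40 at E18 to 9.67 to 10.67 at E20 (ratio -2.06, adjusted p = 1.03e-06). Apart from these, MSMO1 (1.28) was the only call among 20 cholesterol genes, and SQLE and LSS, later enzymes of the pathway, had -0.20 and 0.11. Of 23 bile acid genes 6 were called higher at E20 (26.1%, against 2.40% of all named genes). Besides SLCO1A2 they were the export pump ABCC4 (1.65), the reductase AKR1D1 (1.37) and the hydroxylase CYP8B1 (1.28) of bile acid synthesis, the basolateral exporter SLC51A (1.27) and ABCB1 (1.19). The 5 probe sets of ABCC4 ran from 0.03 to 1.65, and only 1 was called. The 2 called higher at E18 were NR1H4, the bile acid receptor FXR (-0.87), and NR0B2, the repressor that it induces (-0.96). CYP7A1, the first enzyme of the classical route, was near background at E18 (4.19 ± 0.08) and variable at E20 (4.87 ± 1.00). Several of these calls hung on single livers and were lost with any of them left out, at adjusted p values of 0.0527 to 0.121: MSMO1 (E18 replicates 1 and 3, E20 replicates 3 and 4), AKR1D1 (replicates 1 and 2 of both ages), CYP8B1 (E18 replicates 1 and 4, E20 replicate 4), NR1H4 (E18 replicate 2, E20 replicates 1 and 4) and NR0B2 (E20 replicates 3 and 4).

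Of the called genes for sugar storage and for amino acid metabolism most were lower at E20, but some amino acid genes were higher. Of 20 genes of gluconeogenesis and glycogen, 4 were called higher at E18 (20.0%, against 1.83% of all named genes) and none higher at E20. Among them were PPP1R3C (-1.19) and PPP1R3B (-1.11), which bring a phosphatase to glycogen and favour its synthesis. The others were PHKA2 (-1.10), a subunit of phosphorylase kinase, and the glucose carrier SLC2A2 (-0.80). PPP1R3C was at 10.68 to 10.78 at E18 and at 10.23, 9.96, 9.60 and 8.38 at E20, and was not called without E20 replicate 4 (-0.81, adjusted p = 0.0817), nor was SLC2A2 without E20 replicate 3 or 4 (-0.73 to -0.70). PCK1, which makes phosphoenolpyruvate, was at 7.23 ± 1.54 and 9.11 ± 1.31, a ratio of 1.88 that did not pass (adjusted p = 0.0904) with such spread.

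In the list of glycine, methionine, cysteine and one-carbon metabolism 5 of 25 genes passed as higher at E18 (20.0%) and 2 as higher at E20 (8.0%). Of all named genes 1.83% and 2.40% passed in these directions. GATM, the first enzyme of creatine synthesis, was at 12.07, 12.59, 12.94 and 12.27 at E18 and at 11.51, 11.23, 10.32 and 10.96 at E20 (ratio -1.46, adjusted p = 4.18e-05). DMGDH (-1.55), AMT of the glycine cleavage system (-1.38), CTH, which makes cysteine (-1.33), and AGXT2 (-1.13) were the others. The second probe set of CTH gave -0.18. The second probe set of AGXT2 was called the opposite way (0.78), and with the mean of both this gene was not called (-0.18, adjusted p = 0.65). The 2 called higher at E20 were UROC1, an enzyme of histidine breakdown (1.67), and the mitochondrial folate carrier SLC25A32 (0.87, with other probe sets from -0.16 to 1.16), and the latter was not called without E18 replicate 1 or E20 replicate 4. Of 9 genes of phenylalanine and tyrosine breakdown, GSTZ1 (-1.07), HGD (-0.90) and FAH (-0.81), consecutive enzymes at the end of the route, were called higher at E18 and GCH1, which makes its cofactor, was called higher at E20 (0.79). Of 9 kynurenine pathway genes 3 (33.3%) were called higher at E18 (ACMSD, HAAO and KMO, -1.16 to -0.80). Of 19 for branched-chain amino acids 3 (15.8%) were called in the same direction (BCKDHB, IVD and MCCC2, -0.96 to -0.77). Of these small differences, the ones in KMO, HAAO and MCCC2 fell to between -0.78 and -0.67 and were not called without E18 replicate 3 or without E20 replicate 3 or 4. HGD (-0.68 without E20 replicate 4), IVD (-0.71 without E18 replicate 3), FAH (without E18 replicate 2 or E20 replicate 3 or 4), GCH1 (without E18 replicate 1 or 2 or E20 replicate 4) and ACMSD (without E18 replicate 3 or 4 or E20 replicate 2 or 4) were lost in the same way.

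Several plasma defence proteins were higher at E20, and a pair of antimicrobial peptides was lower. Of 22 complement genes 4 were called higher at E20 (18.2%, against 2.40% of all named genes). C6, a part of the membrane attack complex, was at 6.50 to 7.09 at E18 and 9.82 to 10.96 at E20 (ratio 3.42, adjusted p = 1.36e-07), although 1 of its 3 probe sets gave -0.07, and the initiating proteases C1S and C1R had 1.97 and 1.06 and C7 0.99, with C7 at 0.71 and not called without E18 replicate 2. The acute phase proteins SAA (7.65 to 7.90 at E18, and 10.30, 10.20, 9.68 and 11.59 at E20) and ORM1 had 2.64 and 1.51. With HPX and OSMR (0.79), the receptor of oncostatin M, they were the 4 called among 31 acute phase and plasma proteins (12.9%, median 0.13, 11 below 0), and OSMR was not called without replicate 1 of either age, E18 replicate 2 or E20 replicate 4 (0.61 to 0.73). No gene of 29 for coagulation was called by limma, at a median of 0.00 and with 13 at an unadjusted p under 0.05. In contrast LEAP2, the liver-expressed antimicrobial peptide, was at 11.20 to 11.86 at E18 and at 10.61, 10.25, 9.40 and 9.66 at E20 (ratio -1.57, adjusted p = 3.25e-05), the same direction as AvBD10. LEAP2 was chosen after its values were seen. The markers of granulocytes, which also store defensins, gave 1 call in 15, GSTA2 (-1.75), a glutathione transferase that hepatocytes make as well, and AvBD1 was level at 10.20 and 10.18.

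Some hormone-responsive regulators and immediate-early genes were called higher at E20. FKBP5, a co-chaperone of the glucocorticoid receptor that glucocorticoids induce, was at 8.54 to 9.31 at E18 and at 12.24, 10.51, 11.56 and 12.10 at E20, a 6.91-fold higher level that all 3 probe sets shared (2.79 to 3.29). It was called with KLF9 and IRS2 (0.83) among 17 glucocorticoid-responsive genes (17.6%, against 2.40% of all named genes). In this list 13 ratios were above 0 and 4 below, with a median of 0.59. By limma 12 of the 17 genes had an unadjusted p under 0.05. The mean level of the list ran from 8.02 to 8.35 at E18 and from 8.71 to 9.37 at E20, without overlap. IRS2 was lost in 11 of 16 other settings, among them without any liver but E18 replicate 4 (0.63 to 0.91). The 4 probe sets of IRS2 ran from -0.1 to 0.83. Of 15 Kruppel-like factors 3 were called (20.0%), KLF9, KLF13 (2.31) and KLF11 (0.85). KLF9 is thus counted in this list, among the glucocorticoid-responsive genes and in the thyroid hormone axis. The immediate-early genes gave 6 of 34 (17.6%, against 2.40% of all named genes), among them EGR1 (1.25), CREM (1.15) and SOCS3 (1.09). Probe sets of CREM ran down to -0.02. When the model used only the 8 arrays the immediate-early genes gave 3 of 34. KLF11 (0.71 to 0.75 without E18 replicate 1 or E20 replicate 4) and EGR1 (0.78 to 1.08 without E18 replicate 2 or E20 replicate 4) lost their calls with those livers left out.

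Hypoxia genes were called only in the direction of E18, and detoxification genes in both directions. Of 33 hypoxia genes 3 were called higher at E18 (9.09%, against 1.83% of all named genes), at a list median of -0.02. They were the carbonic anhydrase CA9 (-1.53), the secreted stanniocalcin STC2 (-1.45) and ARNT2 (-1.35). Other probe sets of ARNT2 reached only -0.09. CA9 ran from 10.05 to 11.41 at E18 and from 8.52 to 9.99 at E20. Of 11 carbonic anhydrases 3 were called higher at E18 (27.3%), CA9, CA13 (-1.79) and CA2 (-0.95), which is also a red cell gene. Probe sets of CA13 ran up to 0.11. Of 28 genes of xenobiotic metabolism 4 were called higher at E20 (14.3%) and 2 higher at E18 (7.14%), at a median of -0.01. Of all named genes 2.40% and 1.83% were called in these directions. CYP1A1, a target of the aryl hydrocarbon receptor, was at 6.56 to 7.13 at E18 and at 10.06, 8.45, 8.10 and 9.85 at E20 (ratio 2.18, adjusted p = 0.00141). POR, which supplies electrons to these enzymes, had 1.22 and was not called with its probe set of largest variance (0.98, adjusted p = 0.0734). ALAS1, the first enzyme of heme synthesis in liver, had 1.52 and CYP2C18 1.53. The cytochromes CYP2AC1 (-0.85) and CYP1B1 (-0.81) were the 2 called higher at E18. CYP2C18 was not called without E20 replicate 3 (1.28), nor was CYP1B1 without E18 replicate 3 or E20 replicate 1 or 4 (-0.74 to -0.72). In retinoid metabolism ALDH1A2, which makes retinoic acid, had 2.36, while ALDH1A1 had -1.40 and ADH1C -1.69. The 3 probe sets of ALDH1A2 ran from 0.04 to 2.36, and 2 were called. The carriers that exchange ADP for ATP across the mitochondrial membrane, SLC25A4 (1.39) and SLC25A5 (0.87), and cytochrome c (CYCS, 1.10) were called, but only 2 of 60 respiratory chain genes were. CA2 (without replicate 1 of either age, -0.79 to -0.78) and ALDH1A1 (without replicate 2 or 3 of either age, -1.33 to -1.03) were not called in those fits.

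Some of these genes had their highest or lowest mean of the 6 ages at E20. In 28 genes called higher at E20 the E20 mean was above the mean of every other age by 0.75 or more, and in 66 genes called higher at E18 it was below every other age by this margin. Among all 13009 named genes, called or not, 38 and 72 passed these margins. E20 held the highest mean in 34.9% of the 312 genes called higher at E20. It held the lowest mean in 48.7% of the 238 called higher at E18. Over all named genes these shares were 14.7% and 15.4%. The choice of genes called at E20 favours such extremes, and no test was made. The mean of CPT1A went from 8.31 ± 0.45 at E18 to 10.43 ± 0.33 at E20, then to 8.98 in the unfed D1 and 6.16 in the fed D3 livers. ALDH1A2 stood 2.23 above the next age, CHAC1, an enzyme that degrades glutathione and is induced by ER stress in mammals, 1.87, and XBP1 0.86. Others were POF1B (1.78), the helicase DHX29 (1.33) and SPIA3 (1.11), and CHRNA7 (1.51), for which only E20 replicates 3 and 4 (5.36 and 7.33) lay well above the level of the other livers and which was not called without E18 replicate 1 (adjusted p = 0.0527). The mitosis list, which holds 30 of the 238 genes called higher at E18, holds 26 of the 66 genes with the lowest mean at E20. The mitosis list does not hold every cell cycle gene, and CDC45 of the replication list (1.14) is among the rest. The rest also include AvBD10, which was 1.92 below the next age, GSTA2 (1.75), the secreted protein TSKU (1.71), FAM72A (1.63), LIPI (1.61), GATM (1.46) and LEAP2 (1.20). The mean of AvBD10 went from 13.21 at E18 to 10.67 at E20, then to 12.59 in the D1 livers and 13.88 in the D3 livers. For other genes the level of E20 persisted after hatch: FABP1 was at 13.27 at E20 and 13.97, 14.16 and 14.11 at D1, D3 and D9, and KLF9 at 8.79, 9.12, 8.54 and 8.31.

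**Figure D5:**
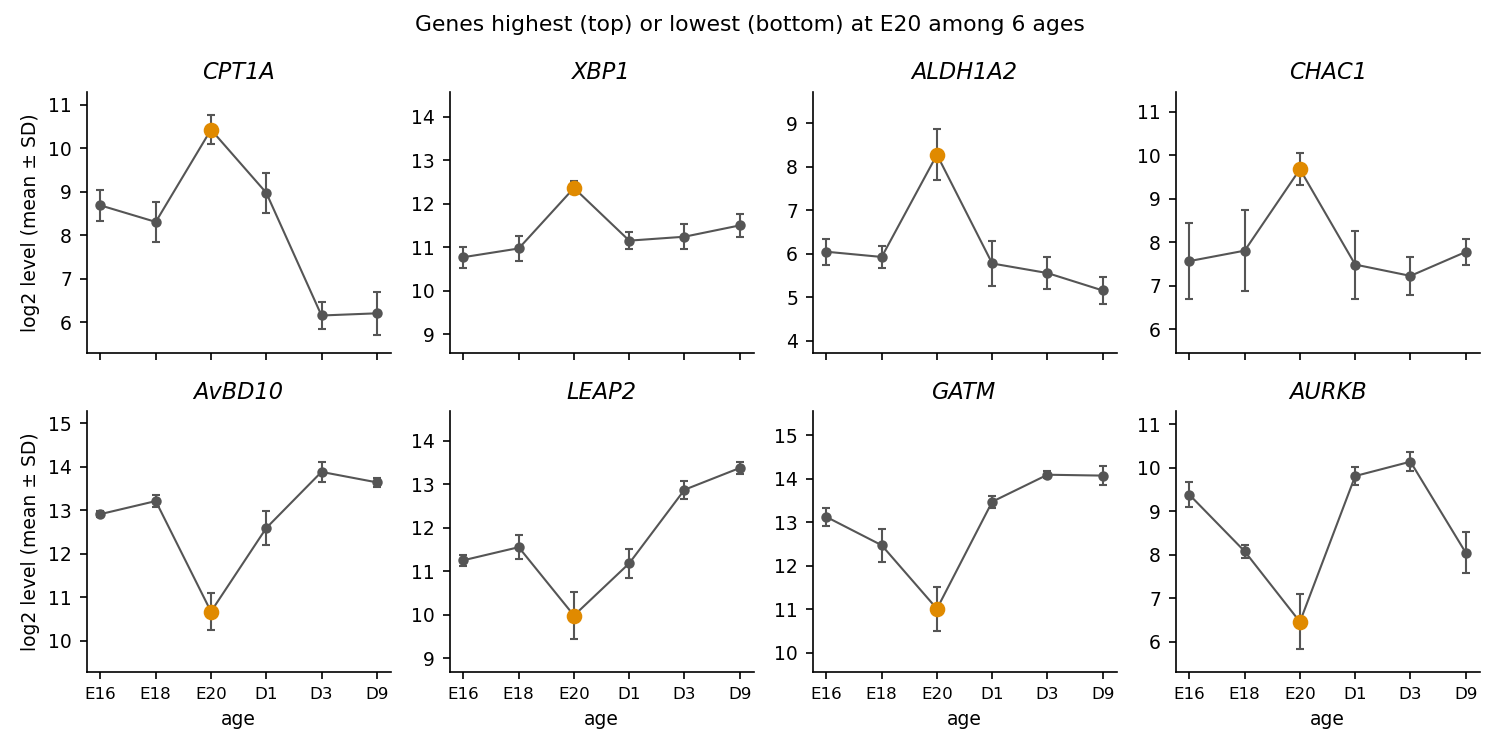
Mean log2 level ± SD (4 livers each) of 8 genes at 6 ages, E20 in orange, every vertical axis spanning 6 log2 units. CPT1A, XBP1, ALDH1A2 and CHAC1 are highest at E20, and AvBD10, LEAP2, GATM and AURKB are lowest at E20 and higher at D1.

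Genes that the study also measured by quantitative PCR, and a set of nuclear receptors and coactivators, were read on the arrays as well. DIO2 was counted with them, although the PCR figures of the study do not show it. Of 24 such genes 22 were measured, and 6 were called: DIO2, DIO3, PPARA, NR0B2, NR1H4 and the Wnt receptor FZD2 (-1.29, adjusted p = 0.00239). MOGAT1, which makes diacylglycerol, was at 12.46 to 12.64 in the E18 livers and at 10.33, 12.17, 12.37 and 10.87 at E20. Although no E20 liver reached the E18 range, replicates 2 and 3 nearly did, and the ratio of -1.11 was not called (adjusted p = 0.0678). PDK4, which shuts pyruvate out of oxidation, was at 13.16 to 13.42 and 12.74 to 13.11 and was not called (-0.31). FASN (0.72) and the receptor ESRRG (0.68) had adjusted p values of 0.0115 and 0.00959 with ratios under the limit. The 4 probe sets of ESRRG ran from -0.21 to 0.77, and 1 was called higher at E20. Of the reference genes that the study chose for its PCR, the ribosomal protein RPL14 had 0.01. The other, COX7A2L, was at 10.76 to 10.90 at E18 and at 11.11 to 11.43 at E20. Its ratio of 0.46 (adjusted p = 0.0018) was under the limit.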

How the data were processed

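Liver RNA of 24 birds was hybridized to Affymetrix Chicken Genome Arrays, 1 bird per array and 4 per age. The deposited log2 values were made by the authors by robust multi-array averaging (background correction, quantile normalization and a summary per probe set), with limma 3.30.13 named in the submitters' processing notes. They force the same distribution on every array, with array medians from 5.43 to 5.55, so that changes are relative to all probe sets, and they hold no read depth. The number of arrays limits the precision.

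Of 38535 probe sets, 96 controls were left out and no filter on dim signals was set. A linear model in limma 3.58.1 (R 4.3.3) with 1 mean per age was fitted to all 24 arrays without a block, followed by empirical Bayes moderation and Benjamini-Hochberg adjustment over 38439 probe sets. Calls used the study's limits. Symbols came from the platform annotation: 27168 probe sets carry 1 symbol, 177 several and 11094 none. A gene is shown by the probe set of highest mean, and 651 genes had any probe set called. Of 307 called genes with more than 1 probe set, 85 had all of them called the same way. In simulated data for this contrast, changes of 1 and 2 on the log2 scale were recovered for 93 and 99 of 100 probe sets each. The simulated noise was normal, with the spread of each probe set pooled over the 24 arrays. It held no outlying livers, so recovery in the presence of such livers was not tested.

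Replicate numbers pair the samples, because the study's hybridization plan ran 1 replicate of every age on each of 4 days. Same-day arrays of different ages correlated weakly in their deviations from the age means (mean r 0.071 over 60 pairs). The mean over 180 pairs of different days was -0.023. Deviations sum to 0 within each age, so the second mean largely follows from the first and is no separate baseline.

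Named genes were the 15 highest and 15 lowest ratios among called genes without overlap, up to 8 called members of each of 56 gene lists, genes that the study measured by quantitative PCR, 5 receptors and coactivators, and, added after their values were seen, the genes with the largest peaks and troughs at E20. Members and lists were chosen with earlier results of these data known. Promoter sequences were not used here.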

Additional observations from a re-analysis of the deposited data

Results flagged for a closer look

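Single livers far from the other 3 of their age were found in 22 of 366 groups of 4 livers checked by Dixon's test, and chance alone flags about 1 group in 20. One of them was the W-linked gene HINTW, at 12.17 in E18 replicate 2 against 5.48 to 6.05 in the others.

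In the same liver HPX was high (11.13 against 8.11 to 8.59), while TDH (10.11 against 12.03 to 12.08), C7 (6.17 against 7.30 to 7.33), IRS2 (7.74) and DRC7 (7.33) were low. E18 replicate 1 was low in FABP1 (8.36 against 9.59 to 9.80), C1S (10.11), ACSL5 (9.73) and ERN1 (7.67). E18 replicate 4 was low in KLF9 (4.81), CDC20 (8.02) and TSPO2 (4.78) and high in CYCS (11.61).

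Among E20 livers, replicate 2 was low in KLF9 (8.03), MYC (9.09) and ERN1 (8.80), all on the side of the E18 level. E20 replicate 1 was high in CDC45 (5.63 against 4.31 to 4.48) and CDCA3 (8.72 against 7.71 to 7.83). Replicate 4 was high in PCF11 (9.31) and low in PPARA (8.64), and replicate 3 was high in SOX17 (7.52). Without E18 replicate 2, 18 of the 166 named genes with a call lost it, C7 and IRS2 among them.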

How the results depend on the processing

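With the hybridization day as a replicate block, 325 genes were called higher at E20 and 241 higher at E18 (603 and 437 probe sets), 546 of the 550 genes kept their call and direction, and BAG3 was the only named gene that lost it. No called gene that is named reversed its direction in any of 16 settings, and no gene called in any of them went the opposite way. Leaving out 1 array at a time gave 232 to 412 genes higher at E20, lowest without E18 replicate 1 and highest without E20 replicate 2, and 205 to 255 higher at E18. Other settings gave 233 to 363 and 190 to 271 genes, and cyclic loess turned the split to 260 higher at E20 and 271 higher at E18. With only the 8 arrays of both ages, 427 genes were called, and 416 of the 550 genes kept their call and direction. The immediate-early list fell from 6 to 3 genes and the list of glycine, methionine, cysteine and one-carbon metabolism from 5 to 3. In this setting the spread comes from the E18 and E20 arrays alone, and the reason for the lost calls was not tested. The ribosome biogenesis list had 7 to 17 calls with 1 array left out, 17 without E20 replicate 2. The mitosis list kept 23 to 33 calls over the other settings and 27 to 36 with 1 array left out, and the folding list 8 to 14 and 9 to 15. Calls on CRAT, IRS2, CCN2, BAG3, ACSL5, ELOVL5, SOX17, OSMR, DNAJA4 and TUBB1 were each lost in 7 or more settings. With only the 8 arrays, ABCB1LA, ADH1C, AGXT2, CDC45, CREM, CRELD2, DMGDH, HSPA5, PHKA2 and SLC51A were among the genes not called, and with the mean of probe sets ABCC4, AGXT2, ARNT2, CRELD2, ERN1, SLC25A4 and SRM were among them. Dim signals bound the folds of DIO2 and MYCN. The planned count of promoter motifs was not run, since promoter sequences were not used here.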
